A study of Mus musculus with 12 samples.

Results

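Gene expression in CD11b+ cells sorted from the hippocampus was compared between 2 inbred mouse strains that had received no radiation, 3 sham-treated Balb/c females against 3 sham-treated C57BL/6 females. These 6 arrays were chosen by their titles from the 12 of the series, whose other 6 hold mice of the same strains given 10 Gy of X-rays to the forebrain. All mice came from the Jackson Laboratory, were 6.5 weeks old at treatment, were anaesthetised with ketamine and xylazine per the labels' protocol, and were analysed 1 month later at 10.5 weeks. Each array held RNA of 5000 to 10000 sorted cells from 1 mouse, so the replicates are separate animals. No transgene or mutation was named for either strain. Values are log2 GCRMA probe set values, in which a step of 1 is a factor of 2, and the lowest value that any array takes is 2.23. Of 18193 genes on the array, 9120 had a brightest probe set above 5 in at least 3 of the 12 arrays and were tested.

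Microglia are the resident macrophages of the brain. They are known for sensing purines and chemokines released by neurons, for clearing debris and synapses, and for presenting antigen and releasing cytokines when activated. C57BL/6 and Balb/c mice carry different haplotypes at many immune loci, among them the major histocompatibility complex (MHC), the SLAM receptor cluster and clusters of interferon-inducible genes. A base that differs between strains under a probe can change its signal without any change in RNA, so further kept probe sets are given for many of the genes below and counted for all called genes.

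Of the 9120 genes, 954 were called between the strains in sham mice at a Benjamini-Hochberg adjusted p under 0.05 in limma (10.5%), 476 higher in Balb/c (5.22%) and 478 lower (5.24%). The difference was at least 2-fold for 472 of them (5.18%), 218 higher (2.39%) and 254 lower (2.79%), and at least 4-fold for 143 (1.57%), 62 higher (0.68%) and 81 lower (0.888%). The median absolute log2 difference of the called genes was 0.99, and that of all tested genes, with its sign, was 0.04. The arrays of the strains did not overlap for 953 of the 954, against 28.5% of all tested genes. For 131 called genes the mean of the dimmer strain was under 5, the level of the filter, so that their fold depends on how the dim end of the scale was made. The group mean was below 3 in Balb/c and above 7 in C57BL/6 for 7 genes, and the reverse held for 4. Leaving out 1 array at a time gave 681 to 939 calls, the fewest without Balb/c sham replicate 1.

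**Figure D1:**
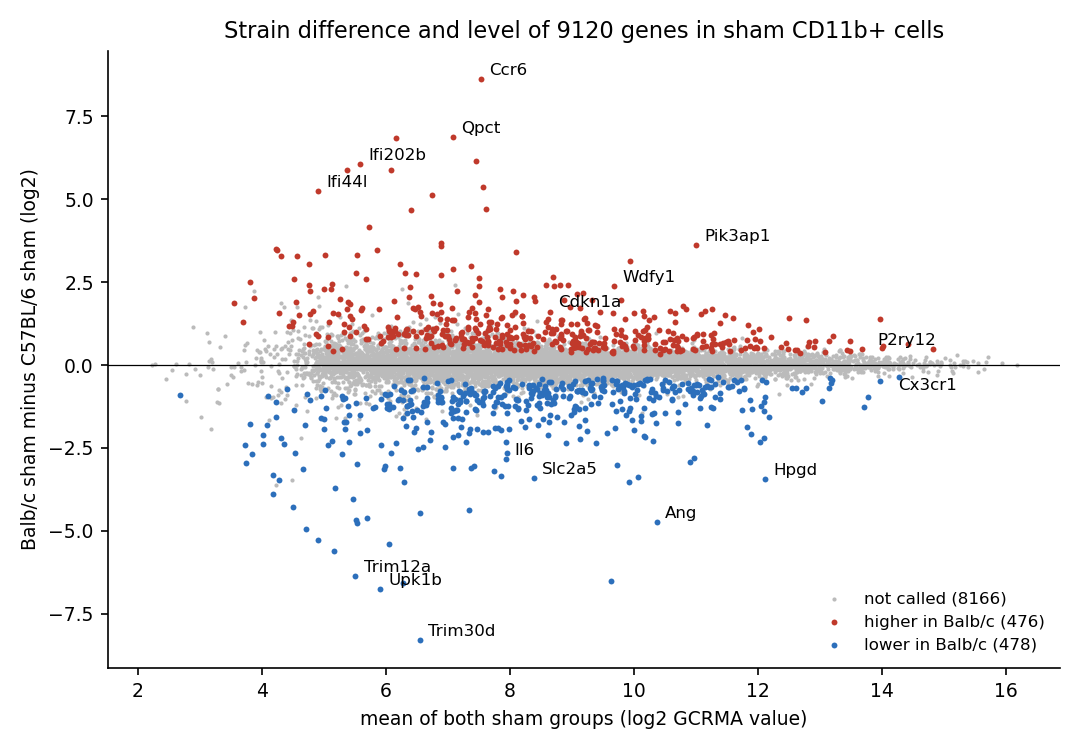
Log2 difference between Balb/c and C57BL/6 sham arrays (vertical axis) against the mean log2 GCRMA value of both groups (horizontal axis), 1 point per tested gene, red for the 476 called higher in Balb/c, blue for the 478 called lower and grey for the rest. The microglial genes P2ry12 and Cx3cr1 lie near 0 at the bright end, while Ccr6 and Trim30d lie farthest from 0.

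Transcripts that define microglia were bright in both strains. P2ry12, the purine receptor of ramified microglia, read 13.76, 14.06 and 13.99 in the C57BL/6 mice and 14.20, 14.02 and 14.32 in the Balb/c mice, a difference of 0.24 ± 0.14 (SE; adjusted p = 0.352). Tmem119, a microglial surface protein, differed by 0.05 ± 0.10, Cx3cr1, the fractalkine receptor, by 0.01 ± 0.11, and Sall1, a transcription factor of microglial identity, by -0.09 ± 0.15. Csf1r, the receptor for the survival factor CSF1, read 14.70 to 15.06 in C57BL/6 and 14.80 to 15.05 in Balb/c. Trem2, a lipid-sensing receptor, differed by 0.18 ± 0.20. The arrays of the strains overlapped for each of these 6 genes, and none was called.

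Within the homeostatic microglia list, 7 of 36 tested members were lower in Balb/c and none was higher (19.4% called, against 10.5% of all genes), with a list median of -0.05. Slc2a5, the fructose transporter GLUT5, which marks microglia in the brain, read 10.17, 10.13 and 9.97 in C57BL/6 and 6.61, 6.81 and 6.61 in Balb/c, a 10.6-fold lower value (log2 difference -3.41 ± 0.13, adjusted p = 3.48e-08). Fcrls, an Fc receptor-like scavenger gene of microglia, was lower by a log2 value of -1.26 ± 0.12 (adjusted p = 5.2e-05) with C57BL/6 arrays at 14.33 to 14.35 and Balb/c arrays at 12.89 to 13.22. Hpgds, the haematopoietic prostaglandin D synthase, was lower by -0.74 ± 0.13. Sall3, a paralogue of Sall1, was lower by -1.82 ± 0.44 (adjusted p = 0.0217), and its second probe set by -1.98. The Slc2a5 groups lay more than 3 log2 units apart, whereas the other members named here lay closer. Leaving out 1 array brought the list to between 3 and 8 calls, with 4 without C57BL/6 sham replicate 2 and without Balb/c sham replicate 2, and 3 without C57BL/6 sham replicate 3, Balb/c sham replicate 1 and Balb/c sham replicate 3. The call of Sall3 was lost without any of 5 sham arrays, at an adjusted p of up to 0.0803.

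Among the genes higher in Balb/c, the chemokine receptor Ccr6 stood farthest from C57BL/6. CCR6 binds the chemokine CCL20 and is known from B cells, dendritic cells and T helper subsets. Its log2 values were 3.07, 3.02 and 3.57 in C57BL/6 and 11.86, 11.88 and 11.80 in Balb/c, a difference of 8.63 ± 0.17 (adjusted p = 1.69e-10). Every C57BL/6 array was near the bottom of the scale and every Balb/c array was among the bright genes. The gene has 1 kept probe set, so no second one can be set beside it.

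Qpct, the glutaminyl cyclase that matures peptide hormones and chemokines, read 3.64, 3.24 and 4.07 in C57BL/6 and 10.28, 10.59 and 10.66 in Balb/c (difference 6.86 ± 0.50, adjusted p = 6.99e-06). Tafa2, a secreted chemokine-like protein, read 4.13 to 4.55 against 10.41 to 10.64. Both genes went from a dim level to a bright one. Pik3ap1, the adaptor BCAP that couples immune receptors to phosphoinositide 3-kinase, was bright in both strains, at 9.15, 9.11 and 9.31 in C57BL/6 and 13.01, 12.67 and 12.75 in Balb/c, a 12.3-fold higher value (log2 difference 3.62 ± 0.15, adjusted p = 5.13e-08). Wdfy1, an endosomal protein of Toll-like receptor signalling, was 5.18-fold higher, and its 3 probe sets differed by 2.37, 2.40 and 1.62, all called. Cap1, which recycles actin monomers, was higher by 5.36 ± 0.26 and Ccdc80, an extracellular matrix protein, by 4.71 ± 0.26. Mxra8, an adhesion protein, was higher by 4.69 ± 0.44 and Dusp27, an atypical dual-specificity phosphatase, by 4.17 ± 0.18. Msh5, a MutS homologue of meiotic recombination, read 2.68, 2.32 and 2.33 in C57BL/6 and 8.52, 8.31 and 8.09 in Balb/c (difference 5.87 ± 0.13). Tmem87a, a Golgi membrane protein, was higher by 5.87 ± 0.21 and the zinc finger gene Zfp458 by 5.11 ± 0.61, the latter with a wide spread in C57BL/6, at 2.66 to 5.34.

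**Figure D2:**
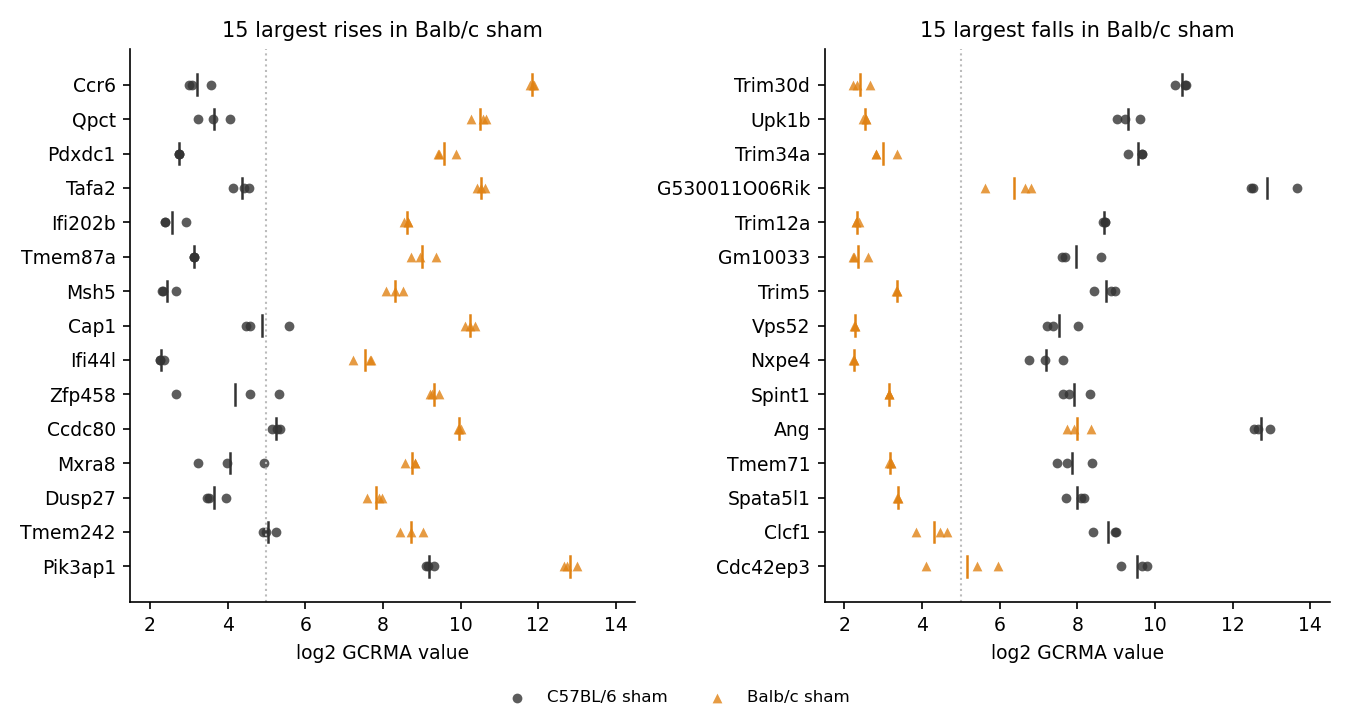
Log2 GCRMA values of each sham array (horizontal axis) for the 15 genes with the largest rises and the 15 with the largest falls in Balb/c among called genes whose arrays do not overlap, with circles for the 3 C57BL/6 mice, triangles for the 3 Balb/c mice, short lines for the group means and a dotted line at 5. In most of the 30 genes the lower strain lies below 5, while every array of Pik3ap1, Ang, Ccdc80 and G530011O06Rik lies above it.

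Among the genes lower in Balb/c, Trim30d led, an E3 ligase-like tripartite motif gene of an antiviral family. It read 10.51, 10.79 and 10.77 in C57BL/6 and 2.66, 2.23 and 2.33 in Balb/c (difference -8.29 ± 0.18, adjusted p = 3.72e-10). Related genes of the same family lay low as well, Trim34a at -6.56 ± 0.18, Trim12a at -6.38 ± 0.11 and Trim5 at -5.40 ± 0.23. Their Balb/c arrays all lay at or under 3.35, near the bottom of the scale, and their C57BL/6 arrays between 8.42 and 9.68. Trim30a, which restrains Toll-like receptor signalling and was picked after its values were seen, was bright in both strains and lower in Balb/c by -1.51 ± 0.19 on its brightest probe set, while its second differed by -0.58 and was not called (adjusted p = 0.0654). The members of this family are close copies, and how far their probes read each other was not tested.

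The promoters of the 4 family members with the lowest relative values in Balb/c are shown because these genes moved together and the family is known to respond to interferon. Each is 250 bases before to 50 bases after the RefSeq start in GRCm38.p6, a C57BL/6J assembly, so the Balb/c sequence is not shown. They lie at chr7:104507800-104508099 (minus strand, Trim30d), chr7:104244207-104244506 (plus strand, Trim34a), chr7:104315446-104315745 (minus strand, Trim12a) and chr7:104288057-104288356 (minus strand, Trim5). Capitals mark matches to the interferon response core GAAANNGAAA, searched on both strands with no other motif, which appear here as TTTCNNTTTC.
Trim30d: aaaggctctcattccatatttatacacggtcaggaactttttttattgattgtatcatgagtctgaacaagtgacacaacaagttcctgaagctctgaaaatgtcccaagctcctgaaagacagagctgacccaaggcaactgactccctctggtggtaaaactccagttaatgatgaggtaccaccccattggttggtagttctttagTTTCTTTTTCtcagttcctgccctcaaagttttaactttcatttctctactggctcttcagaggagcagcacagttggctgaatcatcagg
Trim34a: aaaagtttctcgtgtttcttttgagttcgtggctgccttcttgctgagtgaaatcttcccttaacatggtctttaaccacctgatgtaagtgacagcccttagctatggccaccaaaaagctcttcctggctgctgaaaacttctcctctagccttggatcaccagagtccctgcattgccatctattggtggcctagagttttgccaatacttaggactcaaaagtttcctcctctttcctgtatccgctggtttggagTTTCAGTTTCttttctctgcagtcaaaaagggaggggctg
Trim12a: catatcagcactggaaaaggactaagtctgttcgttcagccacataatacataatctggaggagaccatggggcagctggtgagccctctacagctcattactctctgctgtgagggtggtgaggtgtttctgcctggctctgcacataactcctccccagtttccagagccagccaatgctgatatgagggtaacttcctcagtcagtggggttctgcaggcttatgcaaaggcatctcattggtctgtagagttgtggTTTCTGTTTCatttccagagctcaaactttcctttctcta
Trim5: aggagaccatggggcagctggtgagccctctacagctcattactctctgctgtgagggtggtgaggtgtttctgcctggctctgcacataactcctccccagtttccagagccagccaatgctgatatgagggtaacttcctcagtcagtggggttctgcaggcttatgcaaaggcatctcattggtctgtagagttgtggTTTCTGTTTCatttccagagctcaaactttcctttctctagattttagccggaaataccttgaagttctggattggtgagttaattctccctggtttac
Each of the 4 windows held 1 match, on the reverse strand, and 3.44% of all 32851 promoters of the same length held one. It began at position -41 from the start in Trim30d, 10 in Trim34a and Trim12a, and -49 in Trim5. The Trim12a and Trim5 windows share a run of 241 identical bases. No match was found in the windows of Ifi202b and Ifi44l, described below. A match is a run of letters and not a measured site.

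The other large falls were of mixed function. Ang, the secreted ribonuclease angiogenin, read 12.56, 12.66 and 12.95 in C57BL/6 and 7.73, 8.36 and 7.91 in Balb/c, a 26.4-fold lower value (log2 difference -4.72 ± 0.23, adjusted p = 1.86e-07), and its other probe sets differed by -3.07 and -8.14. Upk1b, a tetraspanin of the urothelium, read 9.63, 9.24 and 9.01 against 2.56, 2.48 and 2.55, and its 4 probe sets differed by -4.77 to -6.76, all called. Both genes were thus lower in Balb/c on each kept probe set. Clcf1, a cytokine of the interleukin-6 family, was lower by -4.48 ± 0.29 and on its second probe set by -2.75. Cdc42ep3, an effector of the GTPase CDC42, was lower by -4.37 ± 0.38 and Spint1, an inhibitor of serine proteases, by -4.77 ± 0.16. Vps52, a subunit of an endosome to Golgi tethering complex, was lower by -5.27 ± 0.19, Tmem71 by -4.68 ± 0.28, Spata5l1, an AAA family ATPase, by -4.62 ± 0.30 and Nxpe4 by -4.94 ± 0.26. The transcript G530011O06Rik read 12.48, 13.65 and 12.52 in C57BL/6 and 6.66, 6.81 and 5.63 in Balb/c, and Gm10033 was lower by -5.60 ± 0.24.

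A pair of metabolic enzymes picked after their values were seen were bright in C57BL/6 and lower in Balb/c. Hpgd, which inactivates prostaglandins, read 13.75, 13.81 and 13.95 against 10.26, 10.34 and 10.58, a 10.9-fold lower value (log2 difference -3.45 ± 0.15, adjusted p = 7.39e-08), and its second probe set differed by -3.96. Phgdh, the first enzyme of serine synthesis, read 11.79, 11.71 and 11.56 against 8.18, 8.41 and 7.86 (difference -3.53 ± 0.20, adjusted p = 1e-06), and its other 3 probe sets differed by -3.04 to -8.40. Neither gene's arrays overlapped between strains, which held for 953 of the 954 called genes and 28.5% of all tested genes.

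Genes at loci known to differ between these strains were read against the labels. H2-Ea encodes the alpha chain of the class II molecule I-E, which C57BL/6 mice lack. Its brightest probe set read 7.22, 7.47 and 6.78 in C57BL/6 and 9.72, 8.26 and 9.82 in Balb/c (difference 2.11 ± 0.53, adjusted p = 0.0274), and its second probe set averaged 2.50 in C57BL/6 and 11.03 in Balb/c (difference 8.53 ± 0.50). The second probe set went from the bottom of the scale to a bright level, while the first was above 5 in every array of both strains. The call on the brightest probe set was lost without any of 4 sham arrays (C57BL/6 replicates 1 and 3, Balb/c replicates 1 and 3), at an adjusted p of up to 0.105. Nnt, the mitochondrial transhydrogenase that carries a deletion in the C57BL/6J substrain, read 10.77, 10.95 and 10.95 against 12.18, 12.57 and 12.20, a 2.69-fold higher value in Balb/c (log2 difference 1.43 ± 0.13, adjusted p = 4.76e-05), and its second probe set differed by 1.70. Prkdc, the DNA repair kinase with a hypomorphic allele in Balb/c, differed by 0.22 ± 0.18 (adjusted p = 0.549). Apobec3, a cytidine deaminase that restricts retroviruses, differed by -0.16 ± 0.19 and Cd72, a C-type lectin-like inhibitory receptor, by 0.09 ± 0.38, and their arrays overlapped. Ly6e, a GPI-anchored protein of the Ly6 family, read 11.19, 11.22 and 11.29 in C57BL/6 and 8.33, 8.28 and 8.08 in Balb/c (difference -3.0 ± 0.22, adjusted p = 6.6e-06), and its second probe set differed by -1.18. Over the list of strain loci, 5 of 16 tested members were higher in Balb/c and 1 was lower, with a median of 0.16. Thus 37.5% were called, against 10.5% of all genes. The members of this list were chosen because such differences are known, and with earlier results of these data known. The count is therefore no independent check of the labels.

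Genes of antigen presentation were next. Of 17 tested MHC class I genes 3 were lower in Balb/c and none was higher (17.6% called, against 10.5% of all genes). The list median was -0.13. H2-K1, a classical class I heavy chain, read 11.22, 10.78 and 10.95 in C57BL/6 and 8.96 to 9.12 in Balb/c (difference -1.95 ± 0.34, adjusted p = 0.00369), and its other probe sets differed by -2.30 and -1.17. Tap1, which pumps peptides to class I molecules, was lower by -1.24 ± 0.18. H2-D1, another classical heavy chain, gave opposite answers on its 7 probe sets. Its brightest probe set was lower by -2.16 ± 0.45 and 3 others by -1.11 to -2.23, while the other 3 were higher by 5.17, 6.21 and 6.26, and all 7 were called. The mean over its probe sets was 1.45 higher in Balb/c, so the direction of H2-D1 depends on the probe set. Strains differ in sequence at these loci, and the class I genes are close copies of each other. How far either set these values was not tested.

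Of 18 tested MHC class II genes 3 were lower in Balb/c and 1, H2-Ea, was higher (22.2% called, against 10.5% of all genes). The list median was -0.05. H2-Oa, a chain of the chaperone that restrains peptide loading, read 7.75, 7.77 and 7.82 in C57BL/6 and 4.35, 4.07 and 5.62 in Balb/c (difference -3.10 ± 0.38, adjusted p = 3.16e-04). H2-DMa, a chain of the peptide loading catalyst, was lower by -1.40 ± 0.21 and on its second probe set by -1.36. H2-DMb2, its partner chain, was lower by -0.65 ± 0.18, but its second probe set differed by 0.16, and the call was lost without any of 7 arrays. The list fell to 2 calls without C57BL/6 sham replicate 3, Balb/c sham replicate 1 or Balb/c sham replicate 3.

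Most interferon-inducible genes had a difference below 0. Of 33 tested members of the type I interferon list, 11 were lower in Balb/c and 1 was higher (36.4% called, against 10.5% of all genes), with a median of -0.61, and 30 of the 33 lay below 0, against 44.2% of all tested genes. Bst2, the tetherin that holds budding virus at the cell surface, read 6.41, 6.86 and 7.87 in C57BL/6 and 3.0, 3.35 and 3.61 in Balb/c (difference -3.72 ± 0.37, adjusted p = 8.33e-05). Samd9l, an antiviral protein, was lower by -2.55 ± 0.41 and Ifit3, which binds viral RNA complexes, by -2.03 ± 0.32. The arrays of the strains did not overlap for any of these 3 genes, as for 953 of the 954 called genes and 28.5% of all tested genes.

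Ifi44l, an interferon-induced gene, went the other way from its list, at 2.36, 2.26 and 2.25 in C57BL/6 and 7.67, 7.70 and 7.24 in Balb/c (difference 5.25 ± 0.14, adjusted p = 1.51e-09), and its second probe set differed by 3.01. Its C57BL/6 arrays all lay at the bottom of the scale. Oasl2, an oligoadenylate synthetase-like protein, averaged 3.14 in C57BL/6 and 2.23, the bottom, in each Balb/c array, and with values under 4 raised to 4 its difference was 0. The list had 10 to 12 calls when 1 array was left out, and its median ranged from -0.66 to -0.51.

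Of 13 tested members of the Ifi200 and Trim30 families, 8 were lower in Balb/c and 2 were higher (76.9% called, against 10.5% of all genes), with a median of -1.51. The Ifi200 genes encode nuclear sensors and regulators of DNA responses. Ifi202b, which antagonises the DNA sensor AIM2, read 2.92, 2.38 and 2.39 in C57BL/6 and 8.65, 8.65 and 8.53 in Balb/c (difference 6.05 ± 0.20, adjusted p = 9.18e-09). Its relative Ifi204, picked after its values were seen, was lower in Balb/c by -3.0 ± 0.44, with C57BL/6 arrays at 6.57, 6.82 and 7.73 and Balb/c arrays at 4.19, 4.83 and 3.11. Members of 1 gene family thus differed in opposite directions. Ifi202b has 1 kept probe set whose name marks it as matching more than 1 transcript. The other higher member, Trim21, an antibody receptor of the cytosol, was higher by 0.41 ± 0.12 (adjusted p = 0.048) and lost its call without any of 10 arrays.

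Of 10 tested guanylate-binding proteins and immunity-related GTPases, which attack vacuoles of intracellular pathogens, 6 were lower in Balb/c and 1 was higher (70.0% called, against 10.5% of all genes), with a median of -0.88. Irgm2 read 11.32, 11.60 and 11.42 in C57BL/6 and 9.20, 9.24 and 9.07 in Balb/c, a 4.85-fold lower value (log2 difference -2.28 ± 0.14, adjusted p = 1.52e-06). Igtp was lower by -1.38 ± 0.19 and Gbp2 by -1.52 ± 0.29, with a second Gbp2 probe set at -2.25. Gbp2b ran against these, at 2.85, 2.85 and 3.98 in C57BL/6 and 5.82, 5.77 and 5.89 in Balb/c (difference 2.60 ± 0.38, adjusted p = 0.00107). The list had 5 to 7 calls when 1 array was left out.

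**Figure D3:**
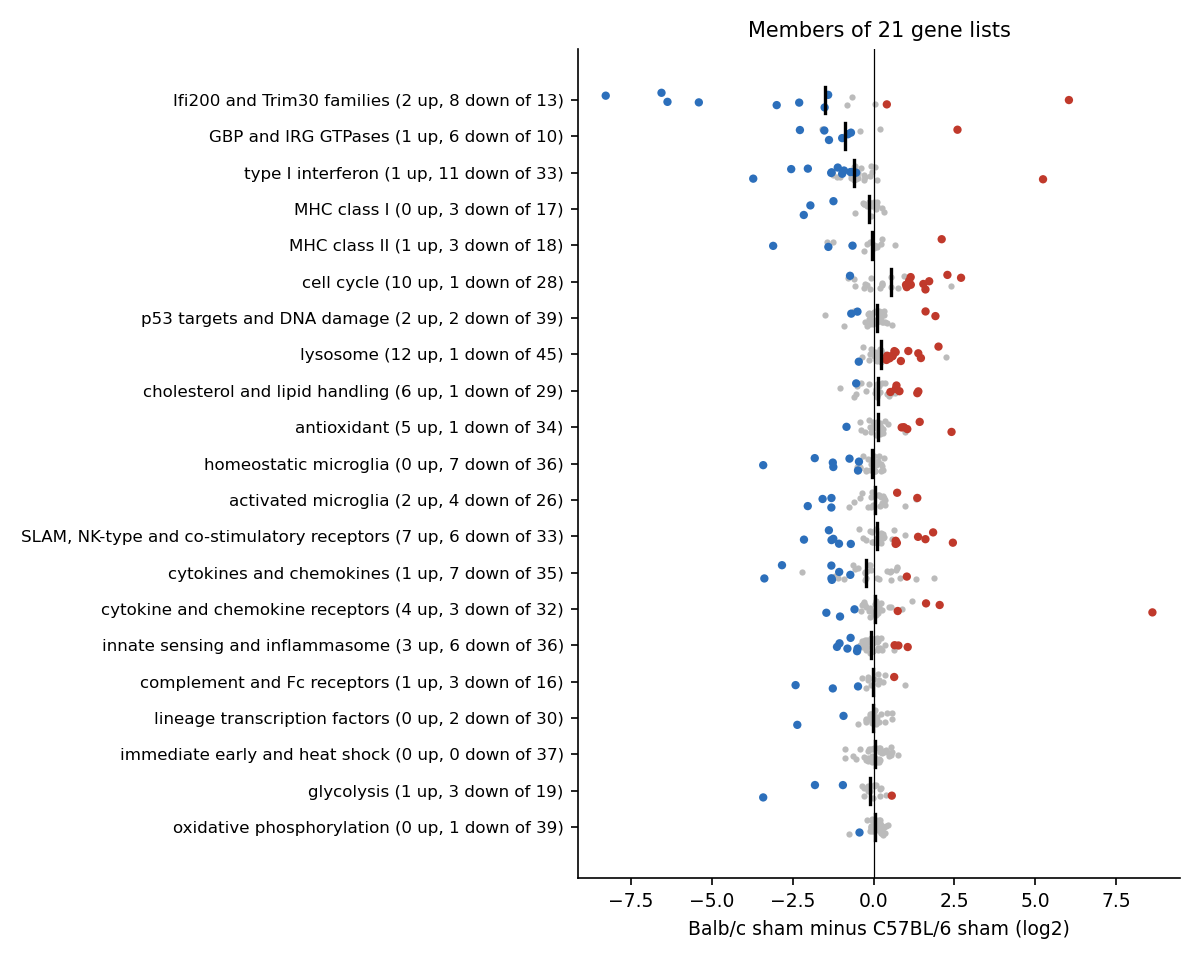
Log2 difference between Balb/c and C57BL/6 sham arrays (horizontal axis) for the tested members of 21 gene lists, 1 point per gene, red where called higher in Balb/c, blue where called lower and grey where not called, with a black line at each list's median. The Ifi200 and Trim30 families, the GTPases and the type I interferon list have medians of -1.51, -0.88 and -0.61, and the cell cycle list has a median of 0.55.

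Cytokine genes held more falls than rises. Of 35 tested cytokines and chemokines, 7 were lower in Balb/c and 1, Il1a, was higher (22.9% called, against 10.5% of all genes). Their median was -0.23. Il6, the pleiotropic inflammatory cytokine, read 8.87, 9.38 and 9.81 in C57BL/6 and 6.37, 6.74 and 6.44 in Balb/c, a 7.12-fold lower value (log2 difference -2.83 ± 0.21, adjusted p = 8.67e-06). Ccl9, a chemokine of myeloid cells, read 11.88, 11.55 and 11.82 against 8.42, 8.28 and 8.42, a 10.4-fold lower value (log2 difference -3.38 ± 0.16, adjusted p = 1.58e-07), and its second probe set differed by -1.11. The monocyte attractant Ccl12 was lower by -1.29 ± 0.18, its relative Ccl6 by -1.30 ± 0.12, and Csf1, a ligand of CSF1R, by -1.30 ± 0.22. Il1a, an alarmin of the interleukin-1 family, was picked after its values were seen and was higher by 1.03 ± 0.20 (adjusted p = 0.00659).

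Among cytokine and chemokine receptors 4 of 32 were higher in Balb/c and 3 were lower (21.9% called, against 10.5% of all genes). Their median was 0.06. Beside Ccr6, Ccrl2, a chemerin-binding receptor, read 7.76, 7.29 and 7.05 against 9.38, 9.42 and 9.43, a 4.13-fold higher value (log2 difference 2.05 ± 0.17, adjusted p = 1.92e-05). Il7r, the interleukin-7 receptor, was 3.09-fold higher (log2 difference 1.63 ± 0.16), and its second probe set differed by 1.6. Il6st, the signal-transducing chain gp130, had its brightest probe set lower by -1.46 ± 0.19 and its second higher by 1.31 ± 0.19, both called, so that no direction can be given for it. Ccr2, the receptor of inflammatory monocytes, differed by 1.18 ± 0.42 (adjusted p = 0.113) with C57BL/6 replicate 3 at 8.20 among the Balb/c arrays.

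The SLAM, NK-type and co-stimulatory receptors were called at 13 of 33, 7 higher and 6 lower (39.4%, against 10.5% of all genes). Their median was 0.11. Slamf6, an adhesion receptor of the SLAM cluster, read 3.60, 4.32 and 3.82 in C57BL/6 and 6.50, 6.65 and 5.96 in Balb/c (difference 2.46 ± 0.27, adjusted p = 1.38e-04). Cd84, of the same cluster, was lower by -2.15 ± 0.36, at 11.11, 11.35 and 11.24 against 8.91, 9.53 and 8.80. Slamf8, a SLAM-family receptor of macrophages, was higher by 1.84 ± 0.23 and Pirb, an inhibitory receptor for class I molecules, by 1.61 ± 0.21. Genes of 1 cluster thus lay on opposite sides. The list had 8 calls without Balb/c sham replicate 1 or Balb/c sham replicate 3.

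Of 36 tested genes of innate sensing and the inflammasome, 6 were lower in Balb/c and 3 were higher (25.0%, against 10.5% of all genes). Their median was -0.08. Pycard, the inflammasome adaptor ASC, was lower by -1.05 ± 0.11, with C57BL/6 arrays at 12.29 to 12.56 and Balb/c arrays at 11.23 to 11.48. Myd88, the adaptor of Toll-like receptors, was lower by -0.49 ± 0.09, whereas Tlr1 was higher by 0.77 ± 0.11 and Nod1, a peptidoglycan sensor, by 1.06 ± 0.19. Among complement and Fc receptor genes 3 of 16 were lower and 1 was higher (25.0% called, against 10.5% of all genes). Their median was -0.03. C5ar1, the receptor for the anaphylatoxin C5a, read 6.02, 6.32 and 6.49 against 3.52, 4.34 and 3.73 (difference -2.41 ± 0.21, adjusted p = 3.12e-05). C1qc, a chain of C1q, was lower by -0.48 ± 0.12, and Fcgr1, the high-affinity IgG receptor, was higher by 0.64 ± 0.14 on its brightest probe set and differed by -0.04 on its second. The C1qc call was lost without any of the 6 sham arrays, that of Fcgr1 without 3 of them, and the list had 2 calls without C57BL/6 sham replicate 3 or Balb/c sham replicate 3.

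Among proliferation genes more were called higher in Balb/c than lower. Of 28 tested cell cycle genes 10 were higher, 1 was lower and 17 were not called (39.3% called, against 10.5% of all genes), with a median of 0.55, and the array holds 52 members in all, the rest under the filter. Mki67, the proliferation antigen Ki-67, read 6.37, 5.73 and 6.17 in C57BL/6 and 7.99, 7.87 and 7.23 in Balb/c, a 3.05-fold higher value (log2 difference 1.61 ± 0.26, adjusted p = 0.00241). Rrm2, a ribonucleotide reductase subunit, read 5.70, 5.32 and 5.57 against 8.88, 7.34 and 8.49 (difference 2.71 ± 0.45, adjusted p = 0.00262), and its second probe set differed by 1.52 without a call. Neither gene overlapped between strains, as was so for 953 of the 954 called genes and 28.5% of all tested genes. Mcm5, a subunit of the replicative helicase, was higher by 1.15 ± 0.14 and Cenpa, the centromeric histone, by 1.10 ± 0.19. Mcm3, of the same helicase and picked after its values were seen, was lower by -0.73 ± 0.16, on 3 of 3 probe sets, and lost its call without Balb/c sham replicate 3. The list had 8 to 11 calls when 1 array was left out, and its median stayed between 0.40 and 0.59 over all the alternatives. In bulk RNA of sorted cells, a different number of cells of a kind and a different amount of RNA per cell cannot be told apart.

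Of 39 p53 targets and DNA damage genes 2 were higher and 2 were lower (10.3% called, near the 10.5% of all genes). Their median was 0.12. Cdkn1a, the cell cycle inhibitor p21, read 7.61, 7.54 and 8.39 in C57BL/6 and 9.47, 9.30 and 9.60 in Balb/c, a 3.05-fold higher value (log2 difference 1.61 ± 0.21, adjusted p = 4.86e-04), and its second probe set differed by 1.85. Chek2, a checkpoint kinase, was 3.77-fold higher (log2 difference 1.92 ± 0.24), with C57BL/6 replicate 1 at 8.09 and the others at 7.11. Apex1, an endonuclease of base excision repair, was lower by -0.69 ± 0.15 (by -0.65 and -0.67 on its other probe sets, the latter not called) and Xrcc6, the end-joining protein Ku70, by -0.50 ± 0.13. The list had 2 calls without Balb/c sham replicate 1 or Balb/c sham replicate 3, arrays without which the calls of Apex1 and Xrcc6 were lost.

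Of 45 tested lysosomal genes 12 were higher in Balb/c and 1 was lower (28.9% called, against 10.5% of all genes), with a median of 0.23. Of the 45, 37 lay above 0, as did 55.8% of all tested genes. Arsb, arylsulfatase B, read 13.30, 13.27 and 13.24 in C57BL/6 and 14.73, 14.60 and 14.64 in Balb/c, a 2.61-fold higher value (log2 difference 1.39 ± 0.10, adjusted p = 7.28e-06). Sgsh, the heparan N-sulfatase, was higher by 1.47 ± 0.18 and Gla, alpha-galactosidase A, by 2.01 ± 0.31, the latter from dim C57BL/6 values of 2.44 to 3.52. Ctsc, the cathepsin that activates granule proteases, was higher by 0.65 ± 0.11 on its brightest probe set and by neither of its others, at -0.17 and -0.18. Idua, alpha-L-iduronidase, was the 1 lower member, at -0.46 ± 0.13, and its call was lost without any of 10 arrays. The list had 8 calls without C57BL/6 sham replicate 1 and 7 without Balb/c sham replicate 1.

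In the cholesterol and lipid list 6 of 29 members were higher in Balb/c and 1 was lower (24.1% called, against 10.5% of all genes). The list median was 0.13. Apoe, the main lipoprotein of the brain, read 12.22, 11.78 and 12.29 against 13.60, 13.52 and 13.24, a 2.56-fold higher value (log2 difference 1.35 ± 0.29, adjusted p = 0.0109). Plin2, a lipid droplet coat protein, was higher by 1.39 ± 0.25, Scd2, a fatty acid desaturase, by 0.71 ± 0.13 and Dhcr7, the last enzyme of cholesterol synthesis, by 0.68 ± 0.16. The second probe set of Scd2 differed by 5.62, from 2.98 in C57BL/6 to 8.60 in Balb/c. Mylip, which degrades the LDL receptor, was lower by -0.54 ± 0.14. The call of Mylip was lost without any of 5 sham arrays, at an adjusted p of up to 0.0994, and that of Dhcr7 without any of 3. The count was 3 without C57BL/6 sham replicate 2 and 4 without any 1 of the 3 Balb/c sham arrays.

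In the antioxidant list 5 of 34 members were higher and 1 was lower (17.6% called, against 10.5% of all genes). The median was 0.14, and the list had 6 calls in each fit without 1 sham array. Duoxa1, a maturation factor of dual oxidase, was higher by 2.41 ± 0.18, with sham means of 5.98 in Balb/c and 3.56 in C57BL/6. Its irradiated means were 3.72 in Balb/c and 2.45 in C57BL/6. It thus passed the filter only through the Balb/c sham arrays, where it is high. Ncf4, a cytosolic subunit of the phagocyte oxidase, was higher by 1.05 ± 0.14 and Prdx4, a peroxiredoxin, by 0.94 ± 0.11. The other probe sets of Prdx4 differed by 0.63 and 0.48 and were not called. Gclc, the rate-limiting enzyme of glutathione synthesis, was lower by -0.84 ± 0.14 and on its second probe set by -0.66.

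Of 26 activated microglia genes 2 were higher and 4 were lower (23.1% called, against 10.5% of all genes), with a median of 0.06, among them Cst7, a cathepsin inhibitor, lower by -2.03 ± 0.27, and Cadm1, an adhesion molecule, higher by 0.73 ± 0.15 and on its other probe sets by 1.08 and 0.67. Of 30 lineage transcription factors 2 were lower (6.7% called, against 10.5% of all genes). Ets1 read 10.33, 10.59 and 10.78 in C57BL/6 and 8.07, 8.19 and 8.37 in Balb/c, a 5.13-fold lower value (log2 difference -2.36 ± 0.15, adjusted p = 2.3e-06), and its second probe set differed by -2.09. Runx1 was lower by -0.93 ± 0.20 on its brightest probe set, by -4.63 on its second and was at 0.12 on another, and lost its call without Balb/c sham replicate 1. Of 19 glycolysis genes 3 were lower and 1 was higher (21.1% called, against 10.5% of all genes). Among them Pdk1, a pyruvate dehydrogenase kinase, was lower by -1.81 ± 0.28 and on each of its 4 probe sets. Hk3, a hexokinase, was lower by -0.95 ± 0.13. Ldhb, a lactate dehydrogenase chain, was higher by 0.57 ± 0.11 and on each of its 4 probe sets. The second probe set of Hk3 differed by -0.57 and was not called (adjusted p = 0.0982). Of 39 oxidative phosphorylation genes 1 was called (2.6%, against 10.5% of all genes). This was Sdha, a subunit of complex II, lower by -0.44 ± 0.10. Sdha lost its call without Balb/c sham replicate 2 or 3 and with the mean of its probe sets (-0.29, adjusted p = 0.169). Its second probe set differed by -0.14 (adjusted p = 0.709). Of the immediate early and heat shock genes, 0 of 37 were called in limma, against 10.5% of all genes. In the same fit 7 had an unadjusted p under 0.05, as did 2077 of all 9120 tested genes. Ptger3, a prostaglandin E2 receptor, differed by -0.21 ± 0.36.

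Markers of other cells that a CD11b+ sort can hold were read on the same arrays, with the linear values of each list summed per array. The border-associated macrophage list (16 genes on the array, Siglec1 under 3 in all 6 sham arrays) summed to 17429 to 32772 in C57BL/6 and 14418 to 16185 in Balb/c. Of its 15 tested members 14 lay below 0, against 44.2% of all tested genes, with a median of -0.57. C57BL/6 sham replicate 3 was high in this list, with Mrc1 at 12.41 and Lyve1 at 10.68, and the median ranged from -0.82 to -0.30 as 1 array was left out. Clec10a, a lectin of these macrophages, was lower by -1.44 ± 0.33, Pf4 by -0.72 ± 0.19, and Colec12, a scavenger receptor, was higher by 3.59 ± 0.32. Of these, Clec10a lost its call without any of 4 arrays and Pf4 without any of 8. The list had 1 call without C57BL/6 sham replicate 3, Balb/c sham replicate 1 or Balb/c sham replicate 2 and 5 without C57BL/6 sham replicate 2.

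The neutrophil list summed to 1563 to 3728 in C57BL/6 and 1410 to 1617 in Balb/c, with 6 of its 12 genes on the array (Ltf, Lcn2, Mmp8, Elane, Mpo and Cxcr2) under 3 in all 6 arrays. Its brightest member, Csf3r, read 10.08 to 10.39 in C57BL/6 and 10.25 to 10.50 in Balb/c. Csf3r alone made up most of the Balb/c sums. S100a8, a subunit of calprotectin, read 10.49, 9.22 and 8.29 in C57BL/6 and 5.75, 6.11 and 6.56 in Balb/c (difference -3.19 ± 0.67, adjusted p = 0.0107). S100a9, its partner, was lower by -2.47 ± 0.64 and lost its call without any of 5 sham arrays. Ngp and Camp, granule proteins, were at 6.97 and 8.0 in C57BL/6 sham replicate 1 and at 2.23 in the other 5 sham arrays, so that this array alone held them. The list median of -1.93 ran from -2.89 to 0 as 1 array was left out.

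Of the T and NK cell markers 13 of 14 on the array were under 3 in all 6 arrays. The 1 tested, Gzma, a granule protease picked after its values were seen, read 5.18, 6.93 and 6.0 against 2.42, 2.32 and 2.55. Its difference was -3.61 ± 1.09 (adjusted p = 0.0624), without a call in the full fit. Gzma was called by limma on the 6 sham arrays alone (adjusted p = 0.00319) and with array weights (adjusted p = 0.0355). It was also called without Balb/c irradiated replicate 1 or 3, so its call depends on the fit. In the B cell list, Cd79a, Ms4a1, Pax5, Fcrla and Blk were under 3 in all 6 arrays, while Cd79b was lower in Balb/c by -2.25 ± 0.23 (adjusted p = 8.67e-05). None of 9 monocyte, 10 neuron, 14 astrocyte, 13 endothelial and pericyte and 6 choroid plexus and ependymal genes was called, nor were 2 immature neuron genes. At an unadjusted p under 0.05 in limma these lists held 2 monocyte, 2 astrocyte and 2 endothelial and pericyte genes and none of the others. Over all 9120 tested genes, 10.5% were called and 2077 had an unadjusted p under 0.05. In lists this short, the absence of a call does not show equal levels. Of 13 oligodendrocyte genes 1 was called, Ugt8a, higher by 0.57 ± 0.16, and its call was lost without any of 9 arrays. The choroid plexus list, led by Ttr, ranged widely inside both groups, from 352 to 62762 in C57BL/6 and from 1099 to 51755 in Balb/c. Where these sums or S100a8 move with the lower interferon, GTPase and cytokine genes of Balb/c, their part in those results was not tested.

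A called gene often had further probe sets. Of the 954, 314 had several kept probe sets and 640 had 1. All kept probe sets lay on the same side of 0 for 253 of the 314 (80.6%), and another probe set was itself called the same way for 149 (47.5%) and the opposite way for 19. Of 3111 uncalled genes with several kept probe sets, 56.5% had all on the same side. Another probe set was called on the side of the brightest for 5.3% of these, and on the opposite side for 93. Of the 428 further probe sets of the 314 called genes, 358 (83.6%) lay on the side of the brightest one, against 3196 of 4887 (65.4%) for genes that were not called. Among the 33 genes of at least 4-fold with several probe sets, 25 had another probe set called the same way (75.8%). Of the 143 genes of at least 4-fold, 110 had a single probe set, so that most of the largest differences, Ccr6, Qpct and Trim30d among them, cannot be read a second time.

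**Figure D4:**
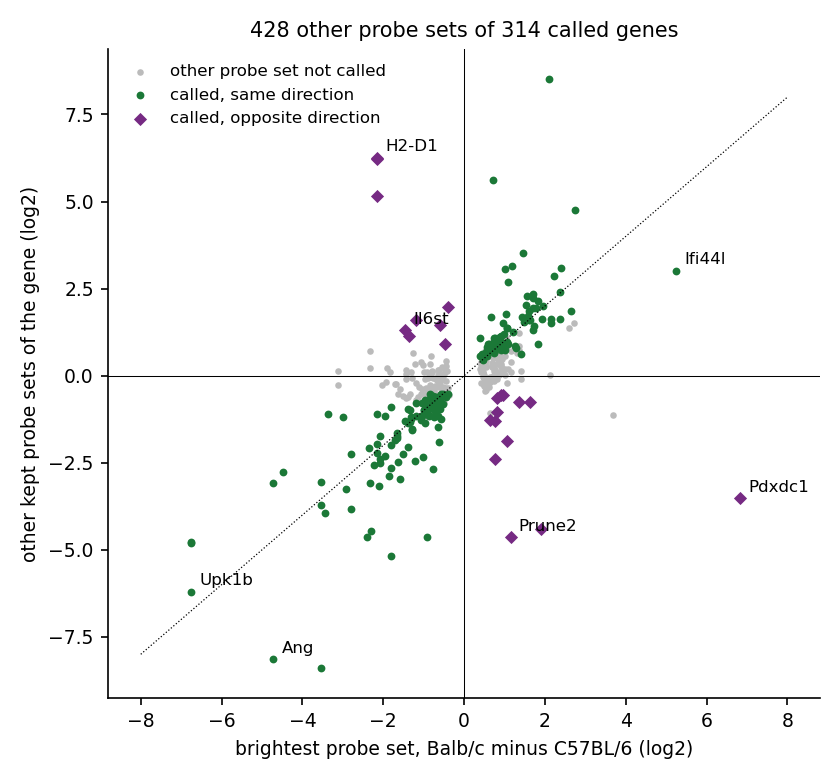
Log2 difference of the further kept probe sets of called genes (vertical axis) against that of the brightest probe set of the same gene (horizontal axis), 428 points for 314 genes, with green for those called the same way, purple diamonds for those called the opposite way, grey for those not called and a dotted line where both are equal. H2-D1, Pdxdc1 and Prune2 lie in the quadrants of opposite sign, while Upk1b, Ang and Ifi44l lie in those of the same sign.

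Of the 3425 tested genes with several kept probe sets, 25 had probe sets called in opposite directions. Pdxdc1, a decarboxylase domain protein, had its brightest probe set at 2.74, 2.74 and 2.76 in C57BL/6 and at 9.42, 9.88 and 9.45 in Balb/c (difference 6.83 ± 0.17), while its second averaged 6.84 in C57BL/6 and 3.32 in Balb/c (difference -3.52 ± 0.39). Prune2, a large scaffold protein, differed by 1.15 ± 0.18 on its brightest probe set and by -4.63 ± 0.16 on the other. Pdxdc1 is thus dim in C57BL/6 on 1 probe set and in Balb/c on the next, while Prune2 is dim on the other probe set in Balb/c alone. Rbm39, a splicing factor, has 12 kept probe sets, 3 called higher by up to 2.65 and 2 called lower by down to -1.81, and its brightest differed by -0.33 without a call. Gcnt1, a glycan-branching enzyme, differed by -1.36 and 1.14, and Atp8a1, a phospholipid flippase, by 1.07, -0.22, 1.37 and -1.89 over its 4 probe sets. Tmem242 was higher by 3.69 on its brightest probe set and differed by -1.14, not called, on its second. No direction of RNA level can be given for such genes from these arrays.

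The tested genes were put in the order they have along the chromosomes in RefSeq. Of 953 called genes with a place, 285 (29.9%) had a called neighbour, against 18.1% of 8152 genes that were not called. The neighbour was called in the same direction for 174 and in the opposite direction for 121, with some genes in both counts. No test was made of this, and neighbours can share a probe set's target where genes overlap. The longest runs held 4 genes. Gbp7, Gbp3, Gbp2b and Gbp2 formed the first, with Gbp7 lower by -0.70 ± 0.14, Gbp3 lower by -0.79 ± 0.20, Gbp2 lower and Gbp2b higher, as given above. Zfp943, Zfp994, Zfp944 and Zfp758, zinc finger genes, formed the second and were all lower, by -0.78, -3.06, -0.79 and -0.80. Zfp994 read 8.65, 9.04 and 9.16 in C57BL/6 and 6.26, 4.68 and 6.74 in Balb/c. The calls of Gbp3 and Zfp758 were lost without any of 5 and 2 sham arrays.

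There were 25 runs of 3, of which those with Ang, Arap1 and Upk1b came first by name and the others given here were picked because they hold genes described above. Trim34a, Trim5 and Trim12a formed one, all lower in Balb/c. Ang stood with Rnase4, a ribonuclease that shares its locus, and Rnase6. Rnase4 was higher by 0.47 ± 0.13, at 14.43 to 14.81 in C57BL/6 and 14.88 to 15.22 in Balb/c, and Rnase6 was lower by -2.04 ± 0.21. The Rnase4 call was lost without any of 10 arrays, while Ang and Rnase6 kept theirs. Upk1b stood with Arhgap31, a GTPase-activating protein lower by -2.24 ± 0.20, and B4galt4, a galactosyltransferase lower by -1.05 ± 0.24, a call lost without any of 4 sham arrays and with no filter (adjusted p = 0.0691). Arap1, Pde2a and Inppl1 formed a mixed run, with Pde2a, a cyclic nucleotide phosphodiesterase, lower by -1.30 ± 0.22, Arap1 lower by -1.02 ± 0.19 and Inppl1, a lipid phosphatase, higher by 0.86 ± 0.16. Slamf1, Cd84 and Slamf6 were a further mixed run.

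The strain difference was read again in the 6 irradiated mice, whose values do not enter the sham group means. They do enter the spread used in the full fit over all arrays. The probe set of each gene and the filter were also chosen over all arrays, for the separate fits as well. The repeat is therefore not fully independent. Fitted apart, the sham arrays gave 742 calls (8.14%) and the irradiated arrays 533 (5.84%). Of the 742, 705 (95.0%) had the same direction in the irradiated arrays and 344 (46.4%) were called there the same way by limma. None was called the opposite way (1 with the filter at 7), and 6 differed the opposite way at an unadjusted p under 0.05. By comparison, 61.3% of genes not called in the sham arrays of the full fit had the same direction. In the other direction, the 344 were 64.5% of the 533 irradiated calls. Of the 143 calls of at least 4-fold in the sham arrays fitted apart, 117 (81.8%) were called again. Ccr6 differed by 8.13 in irradiated mice, Ifi202b by 7.49, Trim30d by -8.20 and Upk1b by -6.36. Slc2a5 differed by -3.05 and Chek2 by 1.37. Each of these kept its sign and lay within 1.5 log2 units of its value in sham mice. Other named genes moved farther. Qpct differed by 6.86 in sham and 3.75 in irradiated mice, and Cdc42ep3 by -4.37 and -2.21. Mxra8 differed by 4.69 and 2.97, and Rrm2 by 2.71 and -0.42. The change with irradiation was not called for any of these genes.

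**Figure D5:**
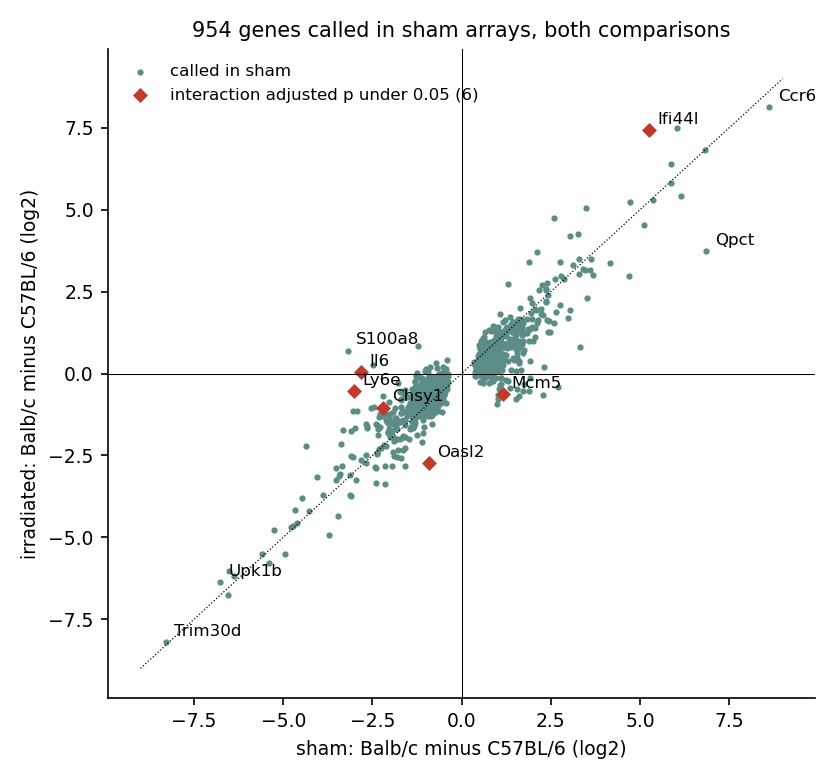
Log2 difference between the strains in irradiated arrays (vertical axis) against that in sham arrays (horizontal axis) for the 954 genes called in sham arrays, with a dotted line where both are equal and red diamonds for the 6 genes whose difference changed with irradiation. Ccr6 and Trim30d lie near the line, while Il6 and S100a8 lie near 0 in irradiated arrays. The 954 calls are those of the full fit over all arrays, whose spread the irradiated arrays helped to set.

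Over all 9120 genes the change of the strain difference with irradiation was called for 7 (0.0768%), of which 6 were sham calls. Il6 averaged 9.43 in C57BL/6 and 9.48 in Balb/c irradiated mice, and Ly6e differed there by -0.53 (adjusted p = 0.172). Ifi44l differed by 7.43 and Oasl2 by -2.74, both more than in sham mice. Mcm5 differed by -0.62 in irradiated mice, against 1.15 in sham mice. In the full fit 0 of 28 tested cell cycle genes were higher and 6 were lower in irradiated Balb/c mice, with a median of -0.47. Of all 9120 genes, 399 were higher and 419 were lower there. Chsy1, a chondroitin synthase, differed by -1.04 after irradiation and read 13.21, 13.20 and 13.15 in C57BL/6 sham and 10.84, 10.95 and 11.21 in Balb/c sham arrays. Of the cell cycle list, Mcm5 alone passed the test of that change, and Mki67 had an adjusted p of 0.0822.

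Array quality was read from control probe sets. The excess of 3' over 5' signal in the control probe sets for Actb and Gapdh grows with RNA breakdown and amplification. In sham arrays it was 3.50 to 3.75 in C57BL/6 and 3.54 to 3.81 in Balb/c. In irradiated arrays it was 3.55 to 3.77 in C57BL/6 and 3.70, 4.82 and 4.21 in Balb/c. The mean correlation of a sham array with its own group was 0.973 to 0.986, and that of an irradiated array 0.966 to 0.978. All 12 arrays had a median of 2.44, with 35.3% of probe sets above 5.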

How the data were processed

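RNA of CD11b+ hippocampal cells, 1 mouse per array, was amplified in consecutive linear rounds and hybridised to Affymetrix arrays, per the labels' protocols. The authors deposited log2 values, which the submitters' processing notes credit to GCRMA without a version. Sorted values were the same in all 12 arrays within 0.001, so the arrays share 1 distribution, and 0 columns were left unmapped. Scanner files, scan dates and batches were not used here. Of 45101 probe sets, 34945 had 1 gene symbol in the platform annotation, 932 had several and 9160 none, and only the first kind was named, with 34741 symbols updated through the Entrez identifier.

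Groups were taken from the sample titles. A gene was represented by its probe set with the highest mean over the 12 arrays and kept if above 5 in at least 3. lmFit and eBayes of limma 3.58.1 (R 4.3.3) were fitted with 1 mean per group over all 12 arrays (8 residual degrees of freedom). Benjamini-Hochberg adjustment ran over the 9120 genes. The labels give no array batch, so none could be tested. Precision is limited by the small number of arrays. The procedure was tested on simulated data.

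The genes, the 34 lists (1022 genes, described by counts and medians) and the tests were chosen with earlier results of these data known. Named were the 15 largest rises and falls among called genes without overlap, up to 4 called members of each list in order of p, a set of 23 microglial, radiation and strain genes, 6 genes with opposite probe sets, the 5 longest runs of neighbours (3 of them tied with 22 others and taken in order of name) and the 6 sham calls with the smallest interaction p. Genes picked after their values were seen are marked in the text or are members that a count of 5 or fewer singled out. Alternatives were other filters, scalings, floors, probe set choices, fits, thresholds, a 3' minus 5' covariate, the replicate number as a block and leaving out each array. Same-numbered sham arrays did not deviate together (correlations -0.05, 0.03 and 0.07), so the numbers were not taken to pair the mice. Pairs of other numbers were not read for comparison. Promoters are from RefSeq, GRCm38.p6.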

Additional observations from a re-analysis of the deposited data

Results flagged for a closer look

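The strain difference of 6 genes called in sham mice changed with irradiation, by the interaction term of the limma fit over all 12 arrays. The change, irradiated minus sham, is the difference of both log2 strain differences. For Il6 it was 2.88 ± 0.30 (SE; adjusted p = 0.00609), from -2.83 in sham mice to 0.05, with the Balb/c mean at 6.52 in sham and 9.48 in irradiated mice and the C57BL/6 mean at 9.35 and 9.43. For Ly6e it was 2.47 ± 0.31 (adjusted p = 0.0165), with the Balb/c mean at 8.23 and 11.2. For Ifi44l it was 2.19 ± 0.20 (adjusted p = 0.00365), with C57BL/6 at 2.29 and 2.35, the bottom of the scale, under both treatments. Mcm5 changed by -1.77 ± 0.20 (adjusted p = 0.0101) and turned its sign. Oasl2 changed by -1.82 ± 0.24 (adjusted p = 0.0203), from Balb/c sham values at the bottom of the scale. It passed the filter only through irradiated arrays, which also set this change. Chsy1 changed by 1.15 ± 0.17 (adjusted p = 0.0498) and stayed lower in Balb/c. Balb/c irradiated replicates 2 and 3 had 3' minus 5' differences of 4.82 and 4.21, against 3.50 to 3.81 in the sham arrays. The part of these arrays in the changes was not tested.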

How the results depend on the processing

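Leaving out 1 array at a time gave 681 to 939 called genes, 318 to 471 higher and 363 to 468 lower in Balb/c. The replicate number as a block gave 947 calls, 857 of the 954 among them. Without collapsing probe sets, 1410 were called, 680 higher and 730 lower. An adjusted p under 0.01 left 523 calls, 242 higher and 281 lower, and a change of at least 2-fold left 472, 218 higher and 254 lower. Of the sham-alone calls, 705 kept their direction in irradiated mice.

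Of the 132 called named genes, 94 kept their call and direction over 13 ways of filtering, scaling, flooring, choosing probe sets, fitting and blocking and with each array left out, while 22 lost a call when an array was left out. With the second brightest probe set, the sign turned for Pdxdc1 (-3.52), Tmem242 (-1.14), H2-DMb2 (0.16), Fcgr1 (-0.04), Il6st (1.31), Ctsc (-0.17), Gcnt1 (1.14), Atp8a1 (-0.22) and Prune2 (-4.63), and for the uncalled Cx3cr1 (-0.10) and Trem2 (-0.01). With the mean of the probe sets it turned for H2-D1 (1.45), Prune2 (-1.74), Rbm39 (0.11) and Cx3cr1 (-0.04). Other uncalled differences near 0 also turned. Cx3cr1 was 0.00 after centring and -0.05 to 0.05 without 1 array, Csf1r was -0.03 after quantile normalization and -0.03 to 0.15 without 1 array, and Cd72 was -0.02 with a floor at 4 and -0.03 to 0.32 without 1 array. Oasl2 was 0.00 with that floor. Genes near the bottom of the scale have no dependable fold.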

Other observations

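Of the kept probe sets that the annotation gives no single gene, 216 of 2190 (9.86%, against 10.5% of tested genes) were called between the strains in sham mice by limma, 80 higher in Balb/c and 136 lower. The probe set with the largest rise averaged 2.27 in C57BL/6 and 10.5 in Balb/c, and the 1 with the largest fall averaged 10.3 in C57BL/6 and 2.44 in Balb/c.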
